A study of Mus musculus with 2 samples.

Results

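The Myc, Max and Mxd family was examined in CH cells, small circulating cells sorted from mouse blood. The family was taken as 10 genes: the Myc paralogs Myc, Mycn and Mycl, their partner Max, and the antagonists Mxd1, Mxd3, Mxd4, Mxi1, Mnt and Mga. Members were all probe sets that the platform annotation assigns to 1 of these genes only, which gave 27 probe sets of 34945 that name a single gene, and 10 genes of 18193. No probe set named a member together with another gene. A probe set is a group of short oligonucleotides that reads 1 stretch of a transcript, and a gene can have several.

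The study hybridised RNA of CH cells to 2 Affymetrix whole-genome mouse arrays, 1 for each of 2 pools, and compared them with public arrays of other populations, which were not analysed here. The labels, which call the cells PlCH cells, give each pool as blood of 15 male and female C57bl/6 mice, adult at 7 months, with no genotype or treatment, and 50 µg of total RNA. The methods describe younger mice and smaller pools. The cells were sorted as alive, small, positive for a DNA dye and negative for CD45 and for antigens of mature blood cells, so no surface marker was used to select them positively. With 1 condition, there is no comparison between groups, and no gene with a like pattern could be sought. Because RNA of many cells was pooled, fewer cells with a transcript and less of it per cell cannot be told apart.

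Myc proteins activate transcription as dimers with Max, through a basic helix-loop-helix and leucine zipper domain that reads the E-box CACGTG. Mxd proteins, Mxi1 and Mnt pair with Max as well, bind the same sites and bring in Sin3 and histone deacetylases, which repress. Mga, a large protein with a T-box besides its helix-loop-helix domain, pairs with Max in a variant Polycomb complex that silences germ cell genes in embryonic stem cells. Myc and Mycn sustain proliferation and self-renewal of mouse embryonic stem cells, and Myc belonged to the original cocktail of reprogramming factors.

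Because Myc, Mxd and Mnt proteins all read CACGTG, the proximal promoters of the family were searched for it. RefSeq promoters of GRCm38.p6, each from 250 bases before to 50 bases after a start site, were matched for 9 of the 10 genes (11 promoters, of which 3 belong to Mxi1). No promoter was matched for Myc, so Myc was not searched. The motif, which reads the same on both strands, was in 3 of the 11, those of Max, Mnt and Mxd4. It was in 7.15% of all 32851 promoters of that length. The runs around it are shown with the E-box in capitals, at chr12:76962234-76962263 for Max (minus strand), chr11:74830789-74830818 for Mnt (plus strand) and chr5:34187912-34187941 for Mxd4 (minus strand). Mycn had no CACGTG in this window. It held TTTGGCGC, a form of the site of E2F factors, at 2 places that do not overlap, both in capitals in a run at chr12:12941993-12942022 (minus strand). That motif, searched on both strands, was in 0.514% of all promoters. Such matches describe letters and do not show that a factor binds. The bases G and C made up 56.0 to 76.7% of the member promoters, beside a median of 52.7% over all promoters. Neither share of all promoters was adjusted for this, so no excess of a motif was drawn from it.
Max: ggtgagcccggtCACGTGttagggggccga
Mnt: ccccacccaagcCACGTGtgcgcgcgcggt
Mxd4: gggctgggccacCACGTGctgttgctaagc
Mycn: gctTTTGGCGCgaaaggcTTTGGCGCctcc

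All 10 genes had at least 1 probe set above 5 (log2) on both arrays, a limit that 71.2% of all genes passed. The value of 5 is the one below which the study dropped genes before clustering. Of the 27 probe sets, 23 were above 5, against 57.2% of all 45037 probe sets. Those 45037 include 9160 that name no gene and 932 that name several, kinds that the members exclude by rule. This limit holds for every value given over all probe sets. With limma, which sets the mean of each probe set against 5 and shares the spread over all probe sets, the same counts of 10 genes and 23 probe sets came out above 5 at an adjusted p under 0.05, against 69.1% of all genes and 54.8% of all probe sets. The other 4 probe sets were below 5 by limma, against 36.4% of all. At a limit of 8, 7 of the 10 genes remained, against 37.0% of all genes, and 8 of the 27 probe sets, against 24.4% of all. Receptors of smell and taste served as background, since blood cells are not known for them. Of 76 such genes, 13 (17.1%) were above 5 and 0 above 8, and their highest probe set, of Vmn1r44, was at 6.92. That level was exceeded by 9 of the 10 members with their highest probe set, and Mxd1 was the exception. Of the 27 member probe sets, 16 exceeded it. The share of all genes above 6.92 was not counted, but their median of 6.84 lies close to it. The median over the 10 genes, each by its highest probe set, was 8.87, beside 6.84 over all genes. Counts and levels by the highest probe set favour genes with several, which were 8 of the 10 members and 9010 of all 18193 genes.

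**Figure D1:**
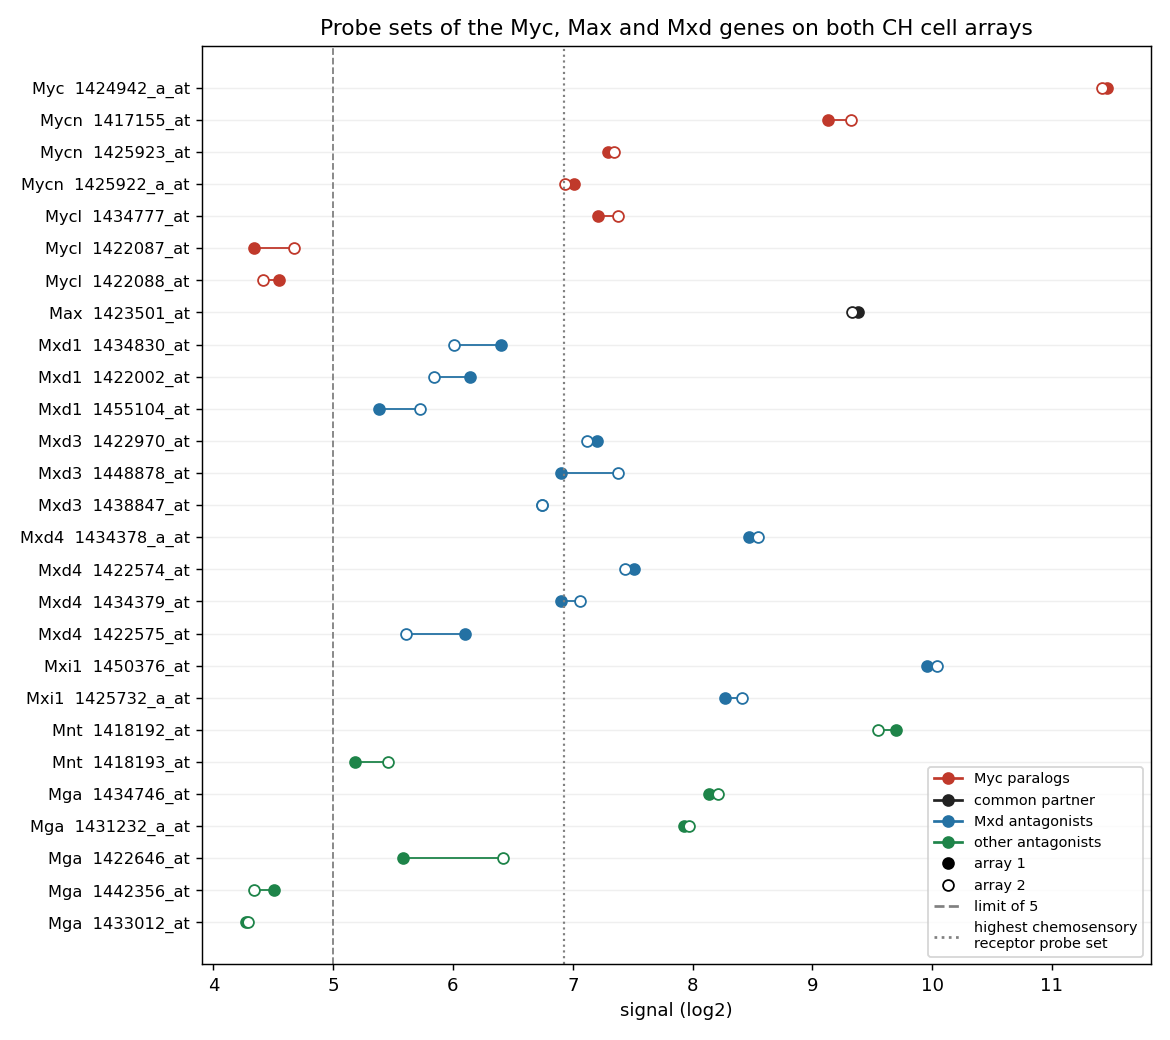
Log2 signal (horizontal axis) of the 27 probe sets of the family (rows), with a filled circle for array 1 and an open circle for array 2, coloured by role. A dashed line stands at 5 and a dotted one at the highest chemosensory receptor probe set, 6.92; Myc lies near 11.44, and 2 probe sets each of Mycl and Mga lie below 5.

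Among the Myc paralogs, Myc had the highest signal and Mycl the lowest, and the 3 genes did not overlap between arrays with their highest probe sets. Each signal also carries the affinity of the oligonucleotides that read it, so this order is one of signals and not of transcript numbers.

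Myc, the paralog found in most dividing cells, had a log2 signal of 11.46 on array 1 and 11.42 on array 2 with its only probe set, 1424942_a_at. The mean was 11.44 ± 0.03 (SD, n = 2 arrays), an intensity of 2780 on the linear scale, with a moderated 95% interval of 11.26 to 11.62 (adjusted p = 8.97e-08 against 5, limma). Both arrays lay far above background, and Myc stood at the 94.6th percentile of all genes.

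Mycn, the paralog of embryonic and neural progenitors, was above 5 with all 3 of its probe sets. Probe set 1417155_at read 9.13 on array 1 and 9.32 on array 2, with a mean of 9.22 ± 0.14 (SD, n = 2 arrays; adjusted p = 2.98e-07, limma). The others were lower on both arrays, with 7.29 and 7.34 for 1425923_at and 7.01 and 6.93 for 1425922_a_at. All 3 lay above the highest chemosensory receptor, the lowest of them by less than its SD between arrays of 0.05, with a mean of 6.97 beside 6.92. The gene stood at the 76.5th percentile of all genes with its highest probe set.

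Mycl, the paralog first found in lung cancer, was read differently by its probe sets. Probe set 1434777_at was above 5, at 7.21 on array 1 and 7.37 on array 2, with a mean of 7.29 ± 0.12 (SD, n = 2 arrays; adjusted p = 2.99e-06, limma). The 2 others were below 5 on both arrays, 1422087_at at 4.34 and 4.67 (adjusted p = 0.00559, limma) and 1422088_at at 4.55 and 4.41 (adjusted p = 0.00135, limma). The annotation ties this pair to the same sequence record, and their means of 4.50 and 4.48 differed by less than the difference between arrays within each. The call for Mycl thus rested on 1 of 3 probe sets, and with the median over them the gene was at 4.50 and not above 5.

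Max, the partner that Myc and Mxd proteins need to bind DNA, had 1 probe set, 1423501_at, at 9.38 on array 1 and 9.33 on array 2. Its mean was 9.36 ± 0.03 (SD, n = 2 arrays; adjusted p = 1.72e-07, limma), at the 77.9th percentile of all genes. The moderated 95% interval of 9.18 to 9.54 overlapped that of the highest Mycn probe set, 9.01 to 9.43, and lay below that of Myc.

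All 12 probe sets of the Mxd antagonists were above 5 on both arrays, from 5.55 to 9.999 in their means, and 3 of them were above 8. Mxi1, also known as Mxd2, was the highest of them. Probe set 1450376_at read 9.96 and 10.04 on arrays 1 and 2, with a mean of 9.999 ± 0.06 (SD, n = 2 arrays; adjusted p = 1.3e-07, limma), and 1425732_a_at read 8.27 and 8.41. Both probe sets were above 8 on both arrays, as was otherwise the case only for Myc and Max, with 1 probe set each.

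Mxd4, known from differentiating cells, had 4 probe sets that spanned 2.65 on the log2 scale. The highest, 1434378_a_at, was at 8.47 on array 1 and 8.55 on array 2, with a mean of 8.51 ± 0.06 (SD, n = 2 arrays; adjusted p = 3.62e-07, limma). The lowest, 1422575_at, was at 6.10 and 5.61, with a mean of 5.85 ± 0.34. The 2 between them, 1422574_at and 1434379_at, had means of 7.47 and 6.98, so no probe set of Mxd4 fell below the limit.

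Mxd3, an antagonist described in cells in S phase, was read alike by its 3 probe sets. Probe set 1422970_at was at 7.20 on array 1 and 7.12 on array 2, 1448878_at at 6.90 and 7.37, and 1438847_at at 6.74 and 6.75. The means of 7.16, 7.14 and 6.74 spanned 0.42, the narrowest range of the 8 members with several probe sets, and all had an adjusted p of at most 2.77e-05 (limma).

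Mxd1, which rises when many cell types stop dividing and differentiate, was the lowest of the 10 genes by their highest probe sets. Single probe sets of Mycl, Mnt and Mga were lower than any of Mxd1. Its probe sets read 6.40 and 6.01 (1434830_at), 6.14 and 5.84 (1422002_at) and 5.38 and 5.72 (1455104_at) on arrays 1 and 2. The highest mean was 6.20 ± 0.27 (SD, n = 2 arrays; adjusted p = 0.000179, limma) and the lowest 5.55 ± 0.24 (adjusted p = 0.00363, limma). All 3 were above 5, but all lay below the highest chemosensory receptor at 6.92. With the limit raised to 6.04, which 95 percent of chemosensory receptor probe sets do not exceed, Mxd1 was the only member no longer above it on both arrays. The share of all genes above 6.04 was not counted, but Mxd1 itself stood at the 43.5th percentile of all genes.

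Mnt and Mga, the antagonists that are found in dividing as well as resting cells, each had probe sets far apart. For Mnt, 1418192_at was at 9.70 on array 1 and 9.54 on array 2, with a mean of 9.62 ± 0.11 (SD, n = 2 arrays; adjusted p = 1.93e-07, limma). Its other probe set, 1418193_at, was at 5.18 and 5.46, with a mean of 5.32 ± 0.20 (adjusted p = 0.0215, limma). The annotation ties both to the same transcript record, yet they differed by 4.52 on array 1 and by 4.08 on array 2, and a smaller range was found for 78.4% of all genes with several probe sets.

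Of the 5 Mga probe sets, 3 were above 5 on both arrays. Probe set 1434746_at was at 8.14 and 8.21, with a mean of 8.17 ± 0.05 (SD, n = 2 arrays; adjusted p = 5.15e-07, limma), and 1431232_a_at was close to it at 7.93 and 7.97. Probe set 1422646_at was at 5.58 on array 1 and 6.42 on array 2. The others were below 5 on both arrays, 1442356_at at 4.50 and 4.34 (adjusted p = 0.000956, limma) and 1433012_at at 4.27 and 4.29 (adjusted p = 0.000218, limma). The 5 probe sets spanned 3.89, with a median of 6.00.

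Ordered by the highest probe set of each gene, the signals ran from Myc through Mxi1, Mnt, Max, Mycn, Mxd4, Mga, Mycl and Mxd3 to Mxd1. Neighbours in this order did not overlap between arrays, but for some the gap was small. Max and Mycn differed by 0.13 in their means and Mycl and Mxd3 by 0.13, and the moderated 95% intervals overlapped for Mxi1 and Mnt, Mnt and Max, Max and Mycn, Mxd4 and Mga, and Mycl and Mxd3. The steps from Myc to Mxi1 (1.44), Mycn to Mxd4 (0.72), Mga to Mycl (0.88) and Mxd3 to Mxd1 (0.96) were those where the intervals did not overlap. With another probe set the order changes, since Mnt was at 9.62 or 5.32 and Mycl at 7.29 or 4.48, so no ranking of paralogs against antagonists was drawn from it. Over all probe sets, the median was 7.29 for the 7 of the Myc paralogs and 6.98 for the 19 of the antagonists, of which 17 were above 5, beside 5.52 over all probe sets.

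The order rested on which probe set stood for a gene. For the 8 members with several probe sets, the median range between the highest and lowest was 2.45 on the log2 scale, beside 2.06 for all 9010 genes with several. Mnt (4.30) and Mga (3.89) had wider ranges, Mycl (2.81), Mxd4 (2.65), Mycn (2.26) and Mxi1 (1.66) lay nearer the median, and Mxd1 (0.65) and Mxd3 (0.42) were narrow. Pairs tied to the same record had close means for Mxd3 and Mycl, each 0.02 apart, but the differences on the arrays had opposite signs, 0.30 and -0.25 for Mxd3 and -0.21 and 0.26 for Mycl. The means of such pairs differed by 0.35 for Mycn, by 0.65 for Mxd1 (1.01 on array 1 and 0.29 on array 2) and by 1.62 and 1.53 for the pairs of Mxd4. Where each probe set lies in its transcript was not analysed here.

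**Figure D2:**
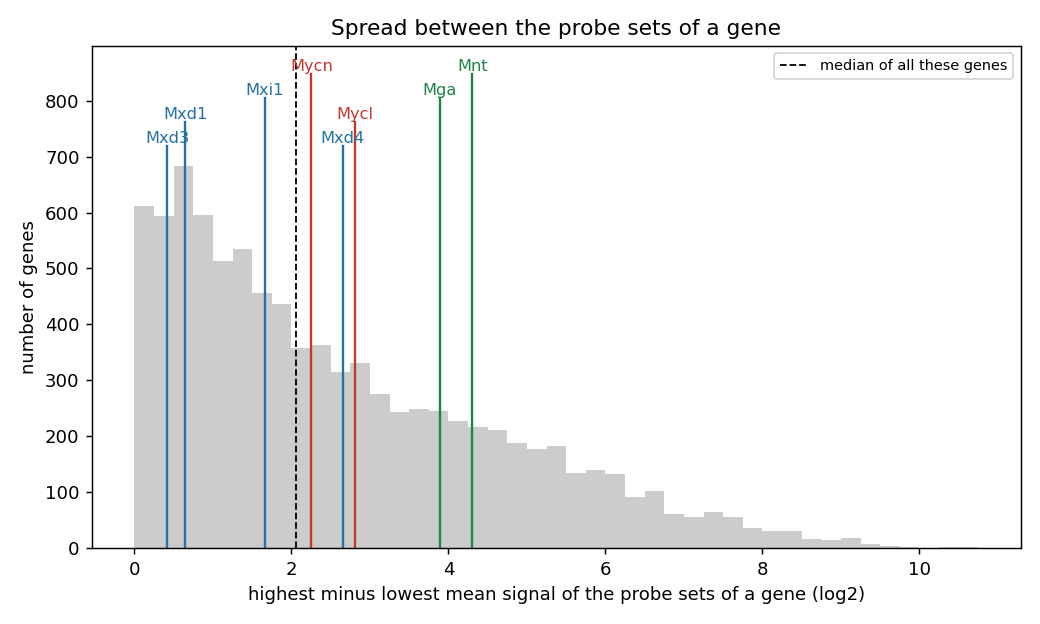
Number of genes (vertical axis) by the difference between the highest and the lowest mean signal of their probe sets (horizontal axis, log2), for 9010 genes with several probe sets. Coloured lines mark the 8 members with several, from Mxd3 at 0.42 to Mnt at 4.30, and the dashed line marks the median of all these genes at 2.06.

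Between the arrays, most of the family differed little. Of the 27 probe sets, 11 were higher on array 1 and 16 on array 2, and the median absolute difference was 0.14, beside 0.12 over all probe sets. Of the member probe sets, 3 were past 0.41, the 95th percentile of all absolute differences. Mga probe set 1422646_at was lower on array 1 by the widest margin (array 1 minus array 2, -0.84), and only 0.109% of all probe sets had a larger difference. Mxd4 probe set 1422575_at (0.49) and Mxd3 probe set 1448878_at (-0.48) followed. For each of these genes the other probe sets differed by less, and the 2 Mga probe sets of highest signal by -0.07 and -0.04, so in none of these 3 genes was the difference shared by all probe sets. These are differences between single arrays, with no test.

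**Figure D3:**
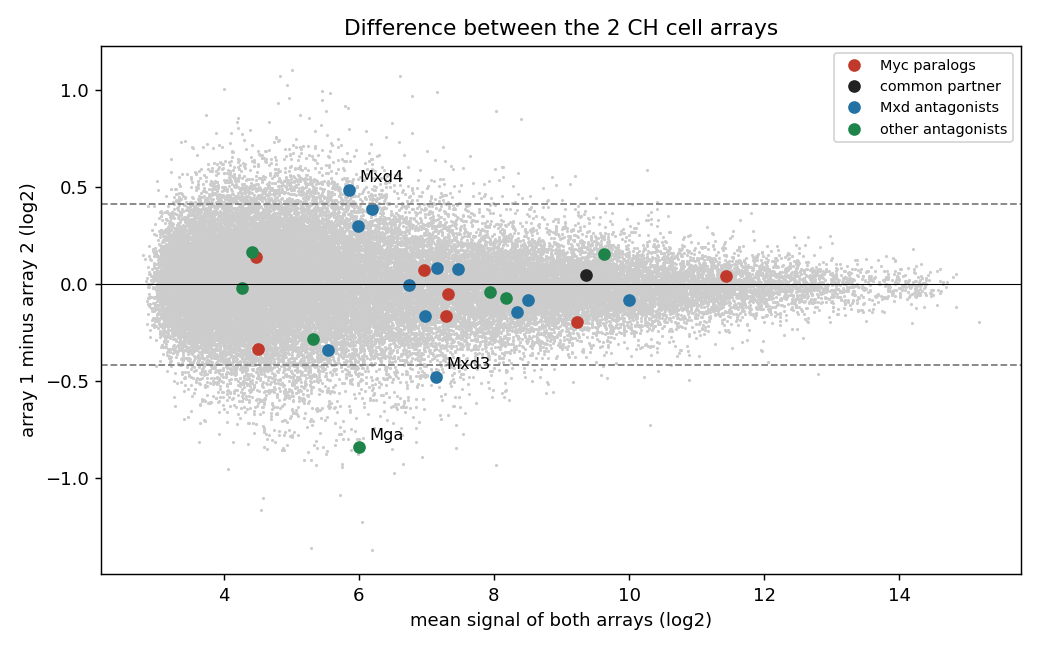
Difference between array 1 and array 2 (vertical axis, log2) against the mean signal of both (horizontal axis, log2), with all 45037 probe sets in grey and the 27 of the family coloured by role. Dashed lines mark the 95th percentile of the absolute difference, 0.41; the named Mga probe set lies at -0.84.

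Genes that act with the family were described by 7 lists of 84 genes in all, compiled from general knowledge and given by their highest probe set. Their counts are to be read beside the shares of all genes, 71.2% above 5 and 37.0% above 8. The Mlx branch, with 2 of 3 genes above 5 and 1 above 8, was near those shares. The lists were not tested against other genes. For genes above 5, a lowest probe set is named below only where its mean was under 5. Other genes spread widely too, with a lowest probe set at 6.66 for Cdk9, 6.49 for Rbbp4, 5.67 for Sin3b and 5.13 for Rnf2.

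All 10 matched genes for coactivators and partners of Myc were above 5 on both arrays, with a median of 9.81. Cdk9, the kinase that releases paused polymerase, was at 11.07 ± 0.11 (SD, n = 2 arrays). The helicases Ruvbl2 and Ruvbl1 were at 11.02 ± 0.05 and 10.23 ± 0.06, and Wdr5, which anchors Myc on chromatin, was at 9.95 ± 0.02. All 10 were also above 8.

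On the side of the antagonists, all 8 matched corepressors were above 5 and above 8, with a median of 11.04. The histone binding proteins Rbbp4 and Rbbp7 were at 12.93 ± 0.02 and 12.82 ± 0.03 (SD, n = 2 arrays). Hdac2, a histone deacetylase, reached 11.67 ± 0.07 with its highest probe set, while its lowest was at 4.81, and Sin3b, a scaffold that Mxd proteins bind, at 11.53 ± 0.09. For the Polycomb complex of Mga, 8 of 8 matched genes were above 5 and 6 above 8. Tfdp1, the dimer partner of E2f6, was at 11.28 ± 0.002, the ubiquitin ligase Rnf2 at 10.79 ± 0.13, its partner Yaf2 at 10.47 ± 0.02 and Pcgf6, the subunit that defines this complex, at 9.61 ± 0.04 with a lowest probe set at 4.38.

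Proteins that control the stability and phosphorylation of Myc were above 5 in 13 of 13 matched genes and above 8 in 8. The ubiquitin ligase Stub1 was at 11.34 ± 0.03 (SD, n = 2 arrays), Aurka, a mitotic kinase that shields Mycn from degradation, at 10.24 ± 0.07 with a lowest probe set at 3.77, Gsk3b, which marks Myc for degradation, at 9.79 ± 0.10 with a lowest probe set at 4.82, and the phosphatase subunit Ppp2r5a at 9.68 ± 0.08. In the parallel branch, Mlx, the partner that takes the place of Max, was at 8.68 ± 0.15 and Mlxip, a glucose sensing factor, at 7.17 ± 0.21. Mlxipl, its relative in liver and fat, was at 4.86 and 4.54 and lay below 5 (adjusted p = 0.0318, limma).

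Genes that Myc is known to induce were high on these arrays, with 25 of 26 matched genes above 5 and the same number above 8, and a median of 12.10. Eif4a1, an initiation factor of translation, was at 13.93 ± 0.05 (SD, n = 2 arrays), the nucleolar proteins Npm1 and Ncl at 13.83 ± 0.03 and 13.35 ± 0.04, with a lowest probe set of Ncl at 4.84, and Ldha, the lactate dehydrogenase of glycolysis, at 13.33 ± 0.03. Tert, the catalytic subunit of telomerase, was at 4.91 and 5.15 and could not be told from the limit (adjusted p = 0.771, limma). Genes that Myc is known to repress were above 5 as well, in 9 of 9 cases and 8 by limma, and above 8 in 7, with a median of 10.82. Gas1, a protein of growth arrest, was at 13.11 ± 0.05, the cell cycle inhibitors Cdkn2b and Cdkn1a at 12.10 ± 0.02 and 11.03 ± 0.05, and Gadd45a, a gene of the damage response, at 11.81 ± 0.11. The remaining genes of the list were named after their values were seen. Cdkn1b was at 9.99, Ndrg1 at 10.76 and Pdgfrb, listed below as a mesenchymal marker too, at 10.82. Only 2 had means below 6.04. Ndrg2, a relative of Ndrg1, was at 5.24 and 6.06 on the arrays, and Cebpa, a factor of myeloid and fat cells, at 5.13 (adjusted p = 0.127, limma). Many genes of both lists are used in most dividing or stromal cells, and no array with altered Myc was analysed here, so these levels do not measure the action of Myc.

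**Figure D4:**
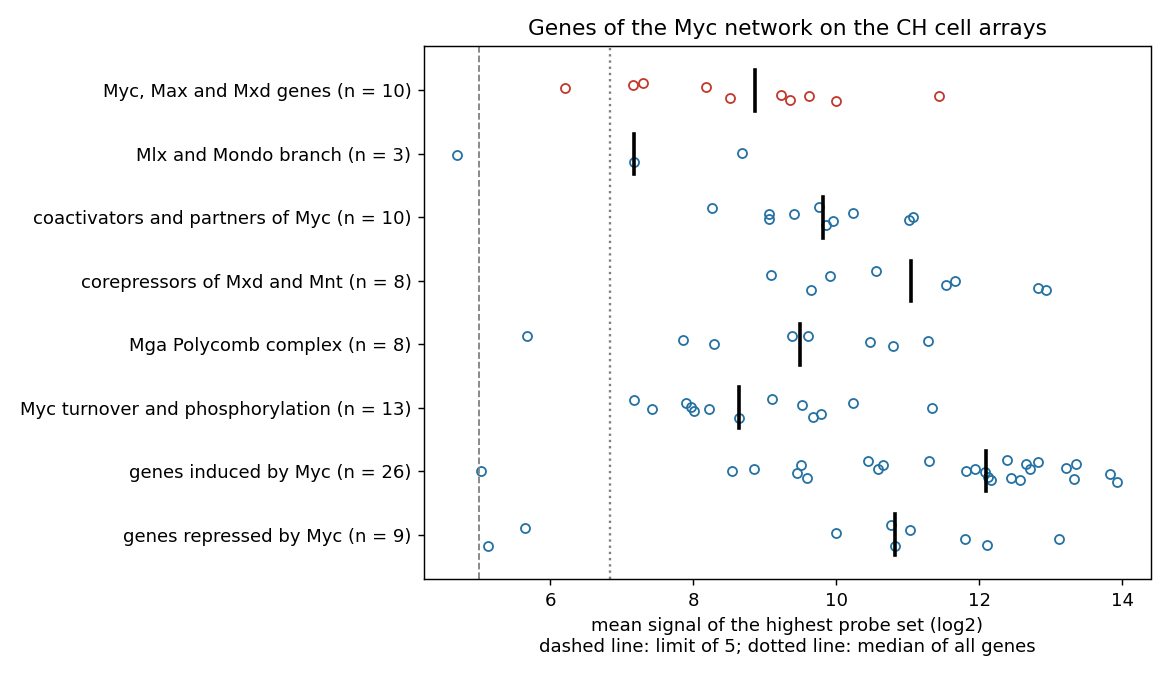
Mean log2 signal of both arrays (horizontal axis) per gene, taken from its highest probe set, as circles in rows by list, where a bar gives the median. The line at 5 is the limit and the dotted one the median of all genes, 6.84; the median is 8.87 for the family, 12.10 for genes induced by Myc and 10.82 for genes repressed by it.

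Markers of the sort and of other cells were read on the same arrays. Of 3 matched antigens excluded by the sort, 0 were above 5 on both arrays, with Ptprc, which encodes CD45, at 4.95 and 5.24, Cd5 at 4.53 and Itgam at 3.85. The summed intensity of these 3 genes was 67.4 and 76.5 on the linear scale of arrays 1 and 2. Of 7 monocyte and neutrophil markers, 6 were above 5, 2 above 8 and 2 at or below 6.04, with sums of 1583 and 1435. Lyz2 at 9.58 and Cd14 at 8.25 were the highest, while Mpo was at 4.73. T cell markers were above 5 in 4 of 5 cases (sums of 287 and 272), B cell markers in 2 of 5 (179 and 191), erythroid markers in 2 of 5 (274 and 270, with Hba-a1 at 4.22) and platelet markers in 5 of 5 (448 and 490), where 71.2% of all genes passed. In these 4 lists 0 genes were above 8, and 3 of 5 T cell, 5 of 5 B cell, 4 of 5 erythroid and 2 of 5 platelet markers lay at or below 6.04, within the range of most chemosensory receptors. Mesenchymal markers were above 5 in 8 of 8 cases and above 8 in 5, with sums of 31823 and 31752, led by Col1a2 at 14.27. Pluripotency markers were above 5 in 8 of 8 cases and above 8 in 4, with sums of 3855 and 4172. At or below 6.04 lay 0 of the mesenchymal markers and 1 of the pluripotency markers, Esrrb at 5.88. Of all genes, 37.0% were above 8. Their share at or below 6.04 was not counted, but Mxd1, at 6.20, stood at the 43.5th percentile of all genes. How far each kind of cell contributes to the signal of the Myc, Max and Mxd genes was not tested.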

How the data were processed

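RNA of 2 pools of CH cells was measured on 2 arrays. The authors deposited 1 log2 value for each probe set and array. Their methods name RMA, quantile normalised jointly with public arrays. That the deposited log2 values stem from that joint run, and the tool versions, are not given in the sources used here. The number of arrays limits the precision.

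After removal of 64 control probe sets, 45037 remained, of which 34945 name 1 gene, 932 several and 9160 none in the platform annotation. Symbols were updated by Entrez identifier to GRCm38.p6 (34741 matched, 0 changed). With limma 3.58.1 in R 4.3.3, means were set against 5 with an intercept alone, two-sided, and Benjamini-Hochberg adjustment was made over all 45037 probe sets. The fit was run on simulated data with 1 common spread for all probe sets, so unequal spreads were not tested. P-values measure the spread between the 2 pools only, with that of each probe set moderated towards the spread of all probe sets. The highest probe set stood for a gene, which favours genes with several. Chemosensory receptors were taken by symbol.

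Named were all members, up to 4 genes of each network list with the highest means, and list genes not above 5. The remaining genes repressed by Myc were named after their values were seen. The members and lists were chosen with earlier results of these data known. Alternatives were limits of 6 and 8 and the 95th percentile of the background, limma, quantile normalisation of both arrays, each array alone, the median probe set, and omission of probe sets ending in _s_at or _x_at. Other steps used Python 3.11.15 with scipy 1.17.1, pandas 2.3.3, numpy 2.4.6 and, for plots, matplotlib 3.10.9.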

Additional observations from a re-analysis of the deposited data

How the results depend on the processing

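No paired analysis was possible because both arrays belong to 1 group. Raising the limit to 8 left 8 of the 27 member probe sets, 1 gene of the Mlx branch and 8 genes of Myc turnover, since a higher limit admits fewer. Over the other alternatives, the member genes above the limit numbered 9 or 10 and their probe sets 17 to 23. No member probe set ends in _s_at or _x_at, so omitting those could not change the member counts. Each array alone gave 10 genes and 23 probe sets, and all 7 list counts stayed within 1.5 times the reported ones. A rule on 1 array cannot give fewer than the rule on both. The median over probe sets moved the level of 6 members by more than the SD between arrays, to 7.32 for Mycn, 4.50 for Mycl, 7.23 for Mxd4, 9.17 for Mxi1, 7.47 for Mnt and 6.00 for Mga. Quantile normalisation moved none of the 10 by more than that, but the medians of the arrays were already close, at 5.54 and 5.52, so it had little to change.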
